A study of Mus musculus with 9 samples.

Results

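Abdominal aortas of male mice with a chemically induced aneurysm that were given naringenin were compared with abdominal aortas of control mice. The comparison took 6 of the 9 one-colour Agilent arrays of the series, namely the 3 of the naringenin group and the 3 of the control group, which the titles call wild type. The aneurysm was induced with CaPO4 (calcium phosphate), and the 3 arrays of aneurysm aortas without naringenin are given beside the comparison. All groups were male, and strain, age, dose and duration of treatment are not given in the sources used here. The series text says that 5 aortas were mixed for each group, but not what each array then received, so the arrays of a group may be repeats of one pool and the p-values may reflect technical error alone. Probes were described across 4 kinds of named target, which together held 7740 of the 59709 probes: RefSeq transcripts (123), long intergenic noncoding RNA (lincRNA) elements (5365), ultraconserved elements (962) and cDNA clones (1290). The lincRNA elements carry 3 kinds of design name, MM9LINCRNAEXON (3457), mouselincRNA (691) and humanlincRNA (1217).

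An abdominal aortic aneurysm is a lasting widening of the vessel wall, in which smooth muscle is lost, elastic fibres break down and immune cells enter. Calcium phosphate laid on the outer wall injures it and is used to produce such a widening in mice. Naringenin is a flavonoid of citrus fruit that is studied for effects on inflammation and lipid metabolism. LincRNAs are long transcripts from between protein-coding genes that are not known to be translated, and ultraconserved elements (uc.) are genomic stretches that are identical between distant mammals, some of which are transcribed. The array carried lincRNA and ultraconserved elements as strand-specific probes, marked + or -.

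Each level below is the log2 spot intensity relative to the 75th percentile of its own array, which is therefore 0. A probe was tested where at least 3 of the 6 arrays measured it well above background, and it was called where the adjusted p of limma (Benjamini-Hochberg over all probes tested) was under 0.05. Of 35533 probes tested, 21151 were called, which is 59.5%, with 10329 higher (29.1%) and 10822 lower (30.5%) in naringenin. The levels of the 3 naringenin arrays and the 3 controls did not overlap for 68.6% of the probes tested. More than 1 probe in 2 was therefore called, and the counts of named members are read against these shares. The controls were hybridised on arrays scanned together, naringenin 1 and 2 were scanned with the CaPO4 arrays, and naringenin 3 was scanned by itself, which means that group and scan cannot be told apart. With scan as a random block 6868 probes were called, 3061 higher and 3807 lower, at a correlation within scans of 0.776.

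Of the 6 arrays, 5 had 48.3 to 57.7% of probes well above background, and naringenin 3 had 84.1%. The controls correlated with each other at r = 0.985 to 0.990 over 22624 probes, naringenin 1 and 2 at 0.995, and naringenin 3 with these at 0.942 and 0.945. The median SD of a probe was 0.17 over the controls and 0.45 over the naringenin arrays. Of the 12 markers of pancreatic acinar cells that were looked for, 1 was named on the array (Amy2a5, pancreatic amylase), and it was far higher on naringenin than on control. None of the 7 smooth muscle, 5 endothelial, 5 fibroblast and 5 macrophage markers was named, so the labelled tissue could not be checked from defining genes. CaPO4 2 lay with naringenin 1 and 2, of its own scan (r = 0.972 with each, 10.6 and 10.9% of probes over 2-fold apart). It was less near to naringenin 3 (r = 0.9, 47.5% over 2-fold apart). From CaPO4 1 and 3, of its scan too, it lay apart (0.840 and 0.844), so the CaPO4 levels below are given array by array.

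RefSeq transcripts lay mostly above the control level in naringenin aortas, while the lincRNA, ultraconserved and cDNA classes were split about evenly or leaned lower. Of 123 RefSeq probes 110 were tested, and 67 of these were higher and 15 lower in naringenin, 74.5% called against 59.5% of all probes. Their median change was 1.62 log2, and it was 1.36 with dim probes set at their bound, against -0.04 and 0 over all probes tested. The levels of the groups did not overlap for 88 of the 110 (80.0%). With scan as a random block 49 were higher and 7 lower. The 110 include many members of multicopy families, whose probes may read near-identical copies, so the number of separate genes is smaller. Among the 67 rises were 21 Y chromosome genes, 10 Vmn1r genes, 3 Ccl21 copies and 2 Pramel genes, described below.

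The noncoding classes had shares of calls close to that of all probes. Among MM9LINCRNAEXON probes 485 of 1755 tested were higher and 563 lower (59.7% called, median change -0.03). Among mouselincRNA probes 54 of 232 were higher and 80 lower (57.8%, -0.34), and among humanlincRNA probes 85 of 384 were higher and 143 lower (59.4%, -0.46). Of the ultraconserved elements tested, 70 of 287 were higher and 105 lower (61.0%, -0.34), and of the cDNA clones 193 of 604 were higher and 189 lower (63.2%, 0.06). With scan as a random block, which called 19.3% of all probes, the calls were 159 higher and 280 lower for lincRNA elements of all 3 kinds, 18 and 32 for ultraconserved elements, and 64 and 79 for cDNA clones. Among the probes not in these classes, 110 tested probes for other transcript models (Ensembl and UCSC names) had 63 higher and 17 lower, with a median change of 1.32. The lean to higher levels was thus seen in the RefSeq probes and the probes for other transcript models, and not in the cDNA clones. Whether the other transcript models are copies of the same families as the RefSeq probes was not tested. The lean to lower levels was seen in the mouselincRNA, humanlincRNA and ultraconserved probes.

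**Figure D1:**
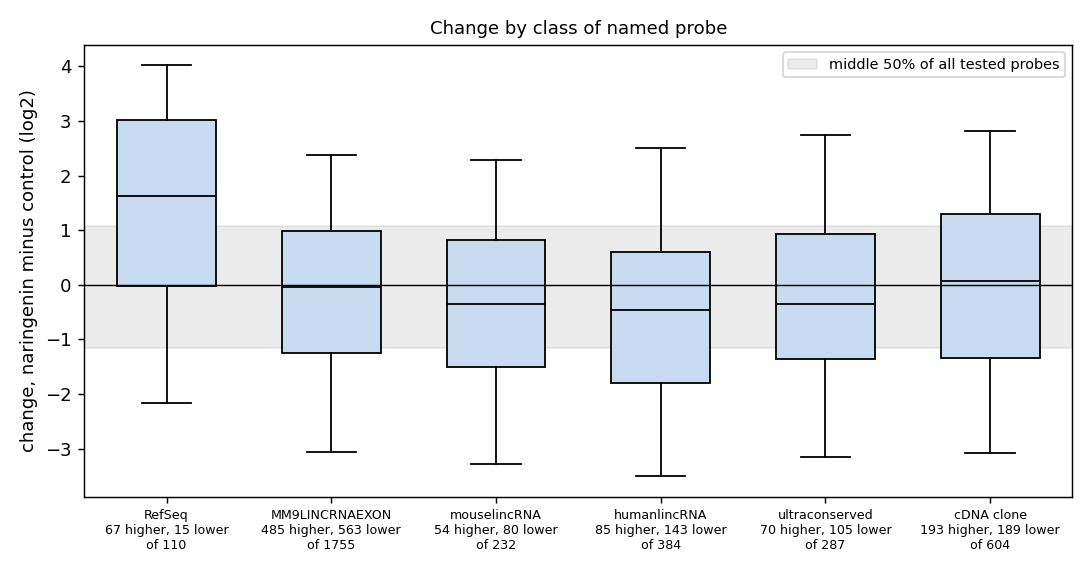
Change from control to naringenin (log2, vertical axis) over the tested probes of each class of named probe. Boxes span the middle 50% with the median as a line, whiskers run from the 5th to the 95th percentile, and the grey band is the middle 50% of all tested probes (-1.16 to 1.07). The RefSeq box lies higher than the others, with a median of 1.62.

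The CaPO4 arrays beside these calls were not alike. The 67 RefSeq probes called higher had median levels of -0.91, -0.92 and -0.69 in controls 1 to 3. The medians were -0.10, 1.88 and -0.01 in the CaPO4 arrays and 2.04, 2.00 and 1.38 in the naringenin arrays, in replicate order. The 15 called lower had medians of 1.97, 2.16 and 2.09 on the controls, 1.26, 0.19 and 1.24 on CaPO4, and 0.14, 0.11 and 0.25 on naringenin. In both sets CaPO4 1 and 3 lay between the controls and the naringenin arrays, and CaPO4 2 lay at the naringenin level. The noncoding classes showed a like order for the probes called lower, with control medians of -0.26, -0.29 and -0.20 for ultraconserved elements, CaPO4 medians of -1.04, -1.81 and -0.99, and naringenin medians of -2.01, -2.03 and -1.63. For noncoding probes called higher, CaPO4 2 lay below the naringenin medians. Its median for humanlincRNA was -1.05 (naringenin -0.77, -0.59 and -0.3), near CaPO4 1 and 3 (-1.19 and -1.2). It was -0.81 for mouselincRNA (naringenin -0.49, -0.45 and 0.02) and -0.46 for ultraconserved elements (-0.4, -0.27 and -0.16). For MM9LINCRNAEXON it was -0.15 (0, 0.01 and 0.12). The lowest level that counted as well above background was -1.43 on CaPO4 1 and -1.19 on CaPO4 3. Their noncoding medians therefore lay close to background, and are weak evidence of a level between the groups. The control and naringenin medians of these sets follow from the calls. In the fit of all 9 arrays, where 21.5% of probes were called between CaPO4 and control, the same controls serve both comparisons, so their changes are given side by side below and not correlated.

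The largest change among RefSeq genes was that of Amy2a5, which codes for the amylase of the exocrine pancreas, an enzyme that splits starch. Controls 1 to 3 gave levels of 0.14, 0.57 and 0.74, the CaPO4 arrays 2.07, 11.08 and 2.08, and the naringenin arrays 11.03, 11.15 and 9.96, in replicate order here and below. All naringenin arrays and CaPO4 2 were high, and the other 5 arrays were low. The rise was 10.23 ± 0.37 log2 (SE of limma, n = 3 per group, adjusted p = 8.98e-06). Its promoter is shown because it is the gene with the largest RefSeq change. The 100 bases before the start of Amy2a5 (GRCm38.p6 in RefSeq, chr3:113258700-113258799, minus strand) hold the letters TATAAA, in capitals, with the first base 30 bases before the start, and 5.56% of 32851 mouse promoters hold TATAAA on either strand in a window of 100 bases. The match describes the letters and no binding was measured.
Amy2a5 promoter: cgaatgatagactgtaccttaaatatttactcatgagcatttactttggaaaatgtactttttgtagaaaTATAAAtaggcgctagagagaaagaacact

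The other gland product on the array, Mucl2, a mucin-like gene, moved the opposite way. Its levels were -0.13, 0.02 and -0.35 on the controls, -0.99, -2.78 and -1.16 on CaPO4, and -3.66, -4.26 and -4.35 on naringenin. It was not well above background on any naringenin array, which puts it at least 7.21-fold lower there (adjusted p = 4.65e-05). A bound of this kind sets each dim array at the lowest level that counted as well above background on it, where that was higher than the probe's own value, and bounds below were all made in that way. The p of such a probe rests on values below background. A probe at background on every control passed the filter through the naringenin arrays alone. The lowest level that counted was -2.64 and -2.06 on naringenin 1 and 2 but -4.32 on naringenin 3. Bounds on falls in which naringenin 3 was dim rest partly on its lower level, and were not made without it. A bound also leaves out the spread between arrays.

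Genes of Ccl21, the chemokine by which lymphatic vessels and lymph node stroma draw T cells and dendritic cells, were higher with each of their 3 probes. Ccl21b had levels of 5.09, 5.08 and 4.97 on the controls, 7.62, 9.68 and 7.74 on CaPO4, and 9.61, 9.60 and 8.54 on naringenin. Ccl21c had 5.28, 5.57 and 5.62, then 7.74, 9.74 and 7.82, then 9.59, 9.62 and 8.68, in the same order. Gm13304, listed as a Ccl21 copy, had 5.17, 5.20 and 5.36, then 7.79, 9.72 and 7.83, then 9.61, 9.64 and 8.54. Every aneurysm array, with or without naringenin, lay above every control for these 3 probes, and naringenin 3 was the lowest of its group each time. The rises were 4.20 ± 0.33 for Ccl21b (18.4-fold, adjusted p = 7.54e-05), 4.02 ± 0.34 for Gm13304 and 3.81 ± 0.31 for Ccl21c. The CaPO4 arrays stood 3.30 ± 0.55, 3.20 ± 0.54 and 2.94 ± 0.53 above control in the fit of 9 arrays. Ccl21b and Ccl21c were the named ones of the 7 markers looked for in lymphatic vessels and lymph node stroma, so the part of lymph node or lymphatic tissue in this rise was not tested. In bulk tissue, more cells of a type and more RNA per cell cannot be told apart. The copies are nearly identical, and their probes may read 1 transcript.

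**Figure D2:**
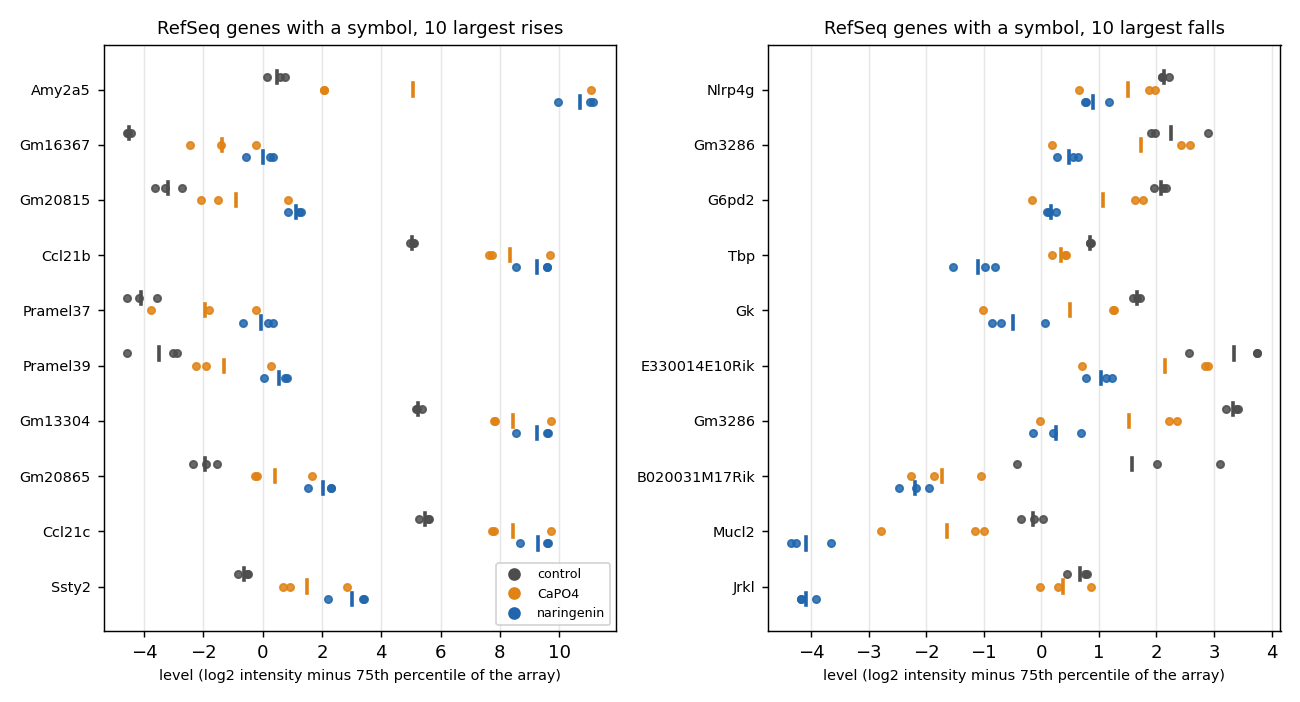
Level of each array (log2 intensity relative to the 75th percentile of each array, horizontal axis) for the 10 largest rises and 10 largest falls (by fitted change) among called RefSeq probes with a symbol; points are arrays, ticks are group means, n = 3 per group. Amy2a5 runs from 0.14 on control 1 to 11.15 on naringenin 2, and Jrkl lies at -3.92 or below on naringenin while all CaPO4 arrays stay at -0.03 or above.

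Genes of the Y chromosome formed the largest named family, and nearly all of them were higher in naringenin. Most belong to multicopy families that are known from male germ cells, where Ssty and Sly act in spermatid development. Of 23 on the array 22 were tested, 2 of them through naringenin arrays alone, and 21 were higher and 0 lower, against 29.1% of all probes higher. The count was 19 with scan as a random block, where limma called 3061 of all 35533 probes higher. The median change was 3.13 log2 (3.07 at the bound), and it lay from 2.25 to 3.21 over the scalings and the background correction. The family had median levels of -0.70, -0.63 and -0.56 on the controls, 0.43, 2.36 and 0.33 on CaPO4, and 2.73, 2.81 and 2.04 on naringenin. The order of the arrays was that of Amy2a5, with CaPO4 2 next to naringenin and CaPO4 1 and 3 nearer to control, and the part of other tissue in this was not tested. All groups are labelled male.

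Ssty2, a spermiogenesis-specific transcript, had levels of -0.51, -0.54 and -0.82 on the controls, 0.92, 2.84 and 0.69 on CaPO4, and 3.43, 3.37 and 2.22 on naringenin, a rise of 3.63 ± 0.36 (12.4-fold, adjusted p = 0.000178). Ssty1 rose by 2.86 ± 0.27, and Sly, a regulator of sex-linked genes in spermatids, by 3.11 ± 0.27. Among the predicted genes Gm20815 lay at -2.71, -3.63 and -3.28 on the controls and at 1.22, 1.30 and 0.84 on naringenin, with no control well above background, so it was at least 9.94-fold higher. Gm20865 lay at -2.36, -1.53 and -1.91 on the controls and at 2.30, 2.30 and 1.54 on naringenin, at least 15.4-fold higher. Gm20736 was at least 2.56-fold higher. The exception was Gm20823, at 2.86, 2.96 and 3.01 on the controls and 3.10, 3.04 and 2.43 on naringenin, and Rbm31y was too dim to be tested.

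The promoters of Ssty2 and Gm20815 are shown because both genes rose and because they illustrate how alike the copies are. The 100 bases before the start of Ssty2 (GRCm38.p6, chrY:67048073-67048172, minus strand) and of Gm20815 (chrY:8835170-8835269, minus strand) share an identical run of 92 bases, in capitals, which sits 8 bases nearer to the start in Gm20815. Neither window holds TATAAA.
Ssty2 promoter: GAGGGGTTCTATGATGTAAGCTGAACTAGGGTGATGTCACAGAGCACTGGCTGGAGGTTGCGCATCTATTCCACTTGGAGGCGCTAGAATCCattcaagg
Gm20815 promoter: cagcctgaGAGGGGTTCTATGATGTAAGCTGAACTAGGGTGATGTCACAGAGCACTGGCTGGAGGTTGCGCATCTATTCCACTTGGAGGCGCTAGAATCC

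**Figure D3:**
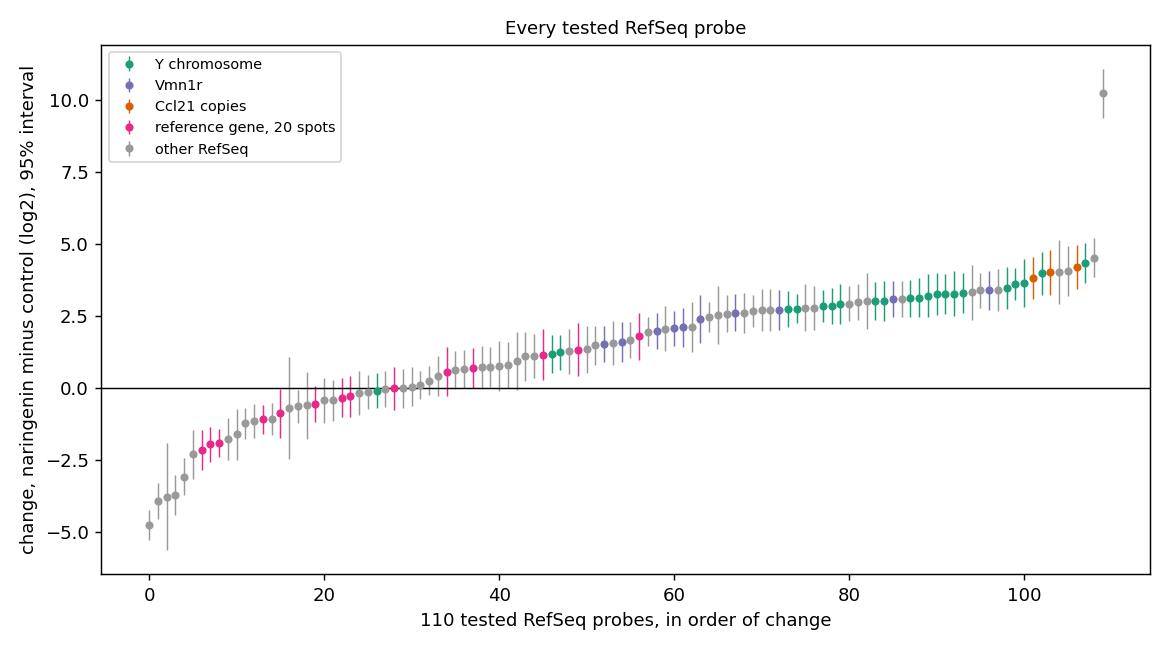
Change from control to naringenin (log2, vertical axis) with its 95% interval for all 110 tested RefSeq probes in order of change, coloured by family. Of the 22 Y chromosome probes 21 and all 10 Vmn1r probes were called higher, while reference genes with 20 spots lie on both sides of 0; the single point at 10.23 is Amy2a5.

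The vomeronasal type 1 receptors (Vmn1r), pheromone receptors of sensory neurons in the vomeronasal organ, were higher as well. Of 12 on the array 10 were tested, 3 of these through naringenin arrays alone. All 10 were higher, against 29.1% of all probes, with a median change of 2.25 (2.02 with dim probes at their bound). The count was 7 with scan as a random block, where limma called 3061 of all 35533 probes higher. Vmn1r187, Vmn1r62 and Vmn1r241 did not pass there (adjusted p = 0.0773, 0.177 and 0.0926). Vmn1r186 and Vmn1r63 were too dim to be tested. Vmn1r259 had levels of -1.35, -1.54 and -1.10 on the controls, -0.57, 1.23 and -0.89 on CaPO4, and 1.68, 1.65 and 0.84 on naringenin, a rise of 2.72 ± 0.30 (adjusted p = 0.000272). Vmn1r157 rose by 2.61 ± 0.27, and Vmn1r243 and Vmn1r93, which no control measured well above background, were at least 7.27- and 2.94-fold higher. As for the Y genes, CaPO4 2 was the highest CaPO4 array for all 4.

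Pramel37 and Pramel39, members of the Prame-like family that is known from germ cells and early embryos, were dim on every control. Pramel37 lay at -4.58, -3.58 and -4.16 on the controls, -3.76, -0.23 and -1.82 on CaPO4, and 0.35, 0.17 and -0.67 on naringenin, which makes it at least 4.41-fold higher (adjusted p = 0.000131). Pramel39 lay at -4.58, -3.03 and -2.88, then -2.26, 0.28 and -1.91, then 0.75, 0.81 and 0.06, at least 6.64-fold higher (adjusted p = 0.00038, and 0.0745 with scan as a random block). Both were tested through naringenin arrays alone and had 1 CaPO4 array, CaPO4 2, at the naringenin level. Their promoters are shown because they are the same letters. Over the 100 bases before the start (GRCm38.p6, chr5:94070546-94070645 for Pramel37 and chr5:94306797-94306896 for Pramel39, both minus strand) 100 of 100 were identical. In both, TATAAA, in capitals, began 28 bases before the start. Transcript and probe sequences of the pair were not compared.
Pramel37 promoter: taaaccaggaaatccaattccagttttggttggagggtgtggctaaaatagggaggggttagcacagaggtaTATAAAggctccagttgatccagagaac
Pramel39 promoter: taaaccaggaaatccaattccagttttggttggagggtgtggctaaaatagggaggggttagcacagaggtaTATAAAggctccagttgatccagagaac

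Gm16367, a predicted gene, was likewise at -4.58, -4.44 and -4.53 on the controls and at 0.24, 0.34 and -0.55 on naringenin, at least 4.60-fold higher (adjusted p = 3.76e-05). It passed the filter through the naringenin arrays alone, so its test sets them against background values. Of 4 histone H2A genes, whose proteins package DNA, 2 were higher and 2 were not called. With 59.5% of all probes called, nothing particular to histones is read from this count. H2ac23 changed from a mean of -2.09 ± 0.38 to -0.61 ± 0.32 (SD, n = 3). H2al2b, a testis histone also counted among the Y genes above, changed from -2.39 ± 0.34 to -1.21 ± 0.31. With 2 controls and 1 control well above background, H2ac23 and H2al2b were at least 2.55- and 1.87-fold higher. Both passed in limma (adjusted p = 0.00349 and 0.00807), and neither did with scan as a random block (0.186 and 0.265) or without scaling (0.0523 and 0.0725). H2al2b also missed in the fit of 9 arrays (0.063) and with normexp (0.111). H2ac19 and H2ac18 changed by 0.94 ± 0.43 and 0.80 ± 0.34 with adjusted p of 0.093 and 0.0743, and both passed without naringenin 3, at 1.46 and 1.17. The pair lay at about 5 on the controls, so the bright histone probes were the ones not called. Nlrp4g, from a family of oocyte NLR proteins, was lower, at 2.10, 2.21 and 2.09 on the controls and 0.76, 0.78 and 1.17 on naringenin, a change of -1.23 ± 0.22 (adjusted p = 0.00254, and 0.0803 with scan as a random block).

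Among the RefSeq genes with the largest falls was Jrkl, which derives from a transposase. Its levels were 0.44, 0.80 and 0.76 on the controls, -0.03, 0.86 and 0.29 on CaPO4, and -4.18, -4.18 and -3.92 on naringenin. All 3 CaPO4 arrays, CaPO4 2 included, lay with the controls, so this probe left the control level on the naringenin arrays alone. It was at least 11.6-fold lower in naringenin (adjusted p = 1.54e-05; 1 naringenin array measured it above background), while CaPO4 differed from control by -0.29 ± 0.33 (adjusted p = 0.542). B020031M17Rik, an uncharacterised gene, lay at 2.01, 3.11 and -0.42 on the controls, -2.27, -1.05 and -1.87 on CaPO4, and -2.17, -1.96 and -2.48 on naringenin. The fitted change was -3.77 ± 0.8 (13.6-fold lower, 95% interval -5.63 to -1.91, adjusted p = 0.00498). Of the naringenin arrays 2 measured it well above background. The bound equalled the fitted fold, so it sets no lower limit. The controls spread widely, and the call did not pass with scan as a random block (0.285). The transcript NM_011667, to which no symbol was matched, fell from 4.71 ± 0.11 to 1.00 ± 0.53 (SD, n = 3), a change of -3.71 ± 0.30.

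Both probes of Gm3286, a predicted gene, were lower. One had levels of 3.21, 3.38 and 3.41 on the controls, 2.22, -0.03 and 2.36 on CaPO4, and -0.15, 0.21 and 0.69 on naringenin, a change of -3.08 ± 0.27 (adjusted p = 0.000116). The other changed by -1.77 ± 0.32 (adjusted p = 0.00232, and 0.174 with scan as a random block). E330014E10Rik lay at 2.56, 3.74 and 3.75 on the controls and 0.77, 1.13 and 1.23 on naringenin, a change of -2.31 ± 0.37 (adjusted p = 0.00136, and 0.148 with scan as a random block). For both genes CaPO4 1 and 3 stayed nearer to the controls than CaPO4 2 did.

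Of 6 genes of glycerol, glucose, cholesterol and iron metabolism on the array 5 were tested. Of these 1 was higher, 2 were lower and 2 were not called, with a median change of -0.43. Over all probes 29.1% were called higher and 30.5% lower, so nothing particular to these genes is read from the count. Gk, the kinase that feeds glycerol into lipid and sugar metabolism, had levels of 1.66, 1.71 and 1.60 on the controls, 1.26, -1.02 and 1.24 on CaPO4, and -0.70, -0.86 and 0.07 on naringenin, a change of -2.15 ± 0.29 (adjusted p = 0.000666). G6pd2, a form of the enzyme that opens the pentose phosphate pathway, had 1.96, 2.16 and 2.12, then 1.62, -0.17 and 1.77, then 0.14, 0.09 and 0.25, a change of -1.92 ± 0.21 (adjusted p = 0.000256). Gapdh, of glycolysis, had 7.95, 8.0 and 8.05, then 7.77, 9.74 and 7.97, then 9.61, 9.61 and 8.26, a change of 1.16 ± 0.38 (adjusted p = 0.0326). The Gapdh call did not pass without control 1, 2 or 3 (adjusted p = 0.0867, 0.0792 and 0.0708), without naringenin 1 or 2 (0.0996 and 0.102) or with scan as a random block (0.255). Hmgcs1, of cholesterol synthesis, lay at 6.38, 6.25 and 6.45 on the controls and 6.33, 6.23 and 5.23 on naringenin (-0.43 ± 0.33, adjusted p = 0.291). That change was -0.08 without naringenin 3, and it was -0.97 and passed under quantile normalization (adjusted p = 0.00446).

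Common reference genes make up most of the 15 that the array measures with 20 spots each, and they were called in both directions. Over all probes 59.5% were called, 29.1% higher and 30.5% lower, so nothing particular to reference genes is read from their counts. Of 14 tested, 3 were higher (Gusb, Rpl13a and Gapdh), 4 were lower (Gk, Tbp, G6pd2 and Nono) and 7 were not called (Ppia, B2m, Tuba1b, Hprt, Hsp90ab1, Tfrc and Actb). None of the 3 rises passed in limma with scan as a random block (adjusted p = 0.0714, 0.203 and 0.255 for Gusb, Rpl13a and Gapdh), nor did the fall of Nono (0.0992), while Gk, Tbp and G6pd2 stayed lower. Gusb, the lysosomal beta-glucuronidase, had levels of 1.69, 1.74 and 1.81 on the controls, 3.52, 4.50 and 3.64 on CaPO4, and 3.95, 3.90 and 2.75 on naringenin. It was above control on every aneurysm array, by 1.79 ± 0.35 in naringenin (adjusted p = 0.00353, and 0.0714 with scan as a random block). Tbp, the TATA-binding protein of the basal transcription machinery, had 0.87, 0.84 and 0.85 on the controls, 0.41, 0.19 and 0.43 on CaPO4, and -0.80, -0.98 and -1.54 on naringenin. It fell by 1.96 ± 0.26 (adjusted p = 0.000598) and all 3 CaPO4 arrays lay between the groups, nearer to control. B2m, the light chain of MHC class I, had 8.91, 9.0 and 9.02, then 8.91, 10.43 and 8.97, then 9.97, 9.94 and 8.72, a change of 0.57 ± 0.36 (adjusted p = 0.211) that was 0.02 under quantile normalization and 0.98 without naringenin 3, where it passed. Tfrc, the transferrin receptor, changed by 0.69 ± 0.29 (adjusted p = 0.075). It passed with the percentile over detected probes (0.58, 0.0498), with normexp (0.58, 0.0212) and without naringenin 3 (0.98, 0.00144).

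Few RefSeq probes could be placed at the control level. For 10 of the 110 tested the 95% interval of the change lay within 1 log2 of control, 9.09% against 13.5% of all probes, and 18 further probes were not called but had wider intervals. The 5 narrowest were NM_009268 (change 0.09, interval -0.39 to 0.58), Ulbp1 (0.26, -0.26 to 0.77), Gm16513 (-0.15, -0.74 to 0.45), Gm20823 (-0.09, -0.68 to 0.51) and Fam177a2 (-0.03, -0.64 to 0.59). Ulbp1 codes for a stress ligand of the NKG2D receptor on natural killer cells. NM_009268 was measured at 5.78, 5.80 and 5.65 on the controls, 6.73, 5.63 and 6.83 on CaPO4, and 5.72, 5.94 and 5.86 on naringenin, so it was CaPO4 1 and 3 that stood off. Gm16513 passed without naringenin 3, at -0.36 (adjusted p = 0.0269). Hprt and Tuba1b, reference genes for purine salvage and tubulin, were also among the 10.

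Taking the 3 largest fitted rises of each of the 4 noncoding classes, 10 of 12 had no control well above background. MM9LINCRNAEXON11238- had levels of 2.83, 2.82 and 2.80 on the controls, 1.00, -4.92 and 1.16 on CaPO4, and -4.81, -4.28 and -3.07 on naringenin, at least 42.5-fold lower (adjusted p = 3.41e-05). MM9LINCRNAEXON11249+ had 3.73, 3.87 and 3.83, then 4.74, -2.76 and 4.54, then -3.74, -2.95 and -1.37, at least 57.0-fold lower (adjusted p = 9.93e-05). CaPO4 1 and 3 were above the controls for this element, and CaPO4 2 was with naringenin. MM9LINCRNAEXON11466+ stayed above background on all arrays and went from 6.37, 6.29 and 6.32 to 0.14, -0.42 and 0.97, a change of -6.10 ± 0.36. The 3 rises named for this class by fitted change, MM9LINCRNAEXON10174-, MM9LINCRNAEXON11267- and MM9LINCRNAEXON10272-, had no control well above background, so their order is not known, and were at least 6.95-, 4.56- and 5.93-fold higher.

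Among mouselincRNA elements the brightest of the falls was mouselincRNA0499+, at 7.90, 7.88 and 7.79 on the controls, 5.14, 2.64 and 5.04 on CaPO4, and 2.60, 2.68 and 3.13 on naringenin, a change of -5.06 ± 0.23 (adjusted p = 1.48e-05). Falls of mouselincRNA0522- and mouselincRNA0970- were -5.56 ± 0.26 and -4.66 ± 0.35. The largest rise was of another kind. The element mouselincRNA0939+ lay at 2.60, 2.56 and 2.50 on the controls, at 2.76, 2.46 and 2.77 on CaPO4 and at 6.33, 6.37 and 6.29 on naringenin, so that all 6 arrays without naringenin were at 1 level and the 3 with it at another. The rise was 3.78 ± 0.20 (13.7-fold, adjusted p = 2.23e-05), while CaPO4 differed from control by 0.11 ± 0.27 (adjusted p = 0.796). The further rises, of mouselincRNA0188- and mouselincRNA1636+, were at least 3.12- and 2.38-fold from background.

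For humanlincRNA elements, which are probes named for human transcripts on a mouse array, humanlincRNA0318+ went from 7.42, 7.59 and 7.78 on the controls to 1.74, 1.96 and 3.04 on naringenin, with 6.07, 1.68 and 5.43 on CaPO4 (change -5.35 ± 0.36, adjusted p = 4.67e-05). The element humanlincRNA2010- was at least 57.9-fold lower, and humanlincRNA2161- fell by 4.92 ± 0.25. The rise of humanlincRNA1114+ was 3.70 ± 0.37, from -1.63, -1.94 and -0.88 to 1.93, 1.93 and 2.78. It was above background on all arrays, and its CaPO4 levels of 0.68, 1.06 and 0.81 lay between. The rises of humanlincRNA0229- and humanlincRNA1505+ were at least 4.10- and 4.15-fold from background, the first with an adjusted p of 0.1 with scan as a random block.

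Of the ultraconserved elements uc.46- had levels of 4.66, 4.73 and 4.86 on the controls, 3.34, 4.35 and 3.48 on CaPO4, and 0.12, -0.09 and -0.72 on naringenin, a change of -4.98 ± 0.28 (adjusted p = 2.42e-05). As for Jrkl and mouselincRNA0939+, CaPO4 2 was not with naringenin here, and it lay nearer to the controls than CaPO4 1 and 3 did. The element uc.77+ changed by -4.65 ± 0.48, from 5.44 and 5.53 on controls 2 and 3 to 0.81, 0.03 and 1.67 on naringenin; control 1 was left out as an outlier spot. The element uc.86- was at least 10.7-fold lower with no naringenin array well above background, from -1.53, 1.35 and 1.42 on the controls, and did not pass with scan as a random block (adjusted p = 0.163). The rises of uc.188+, uc.182- and uc.69+ were at least 4.08-, 4.21- and 3.44-fold, all from background on the controls, and uc.182- did not pass with scan as a random block (0.0836).

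**Figure D4:**
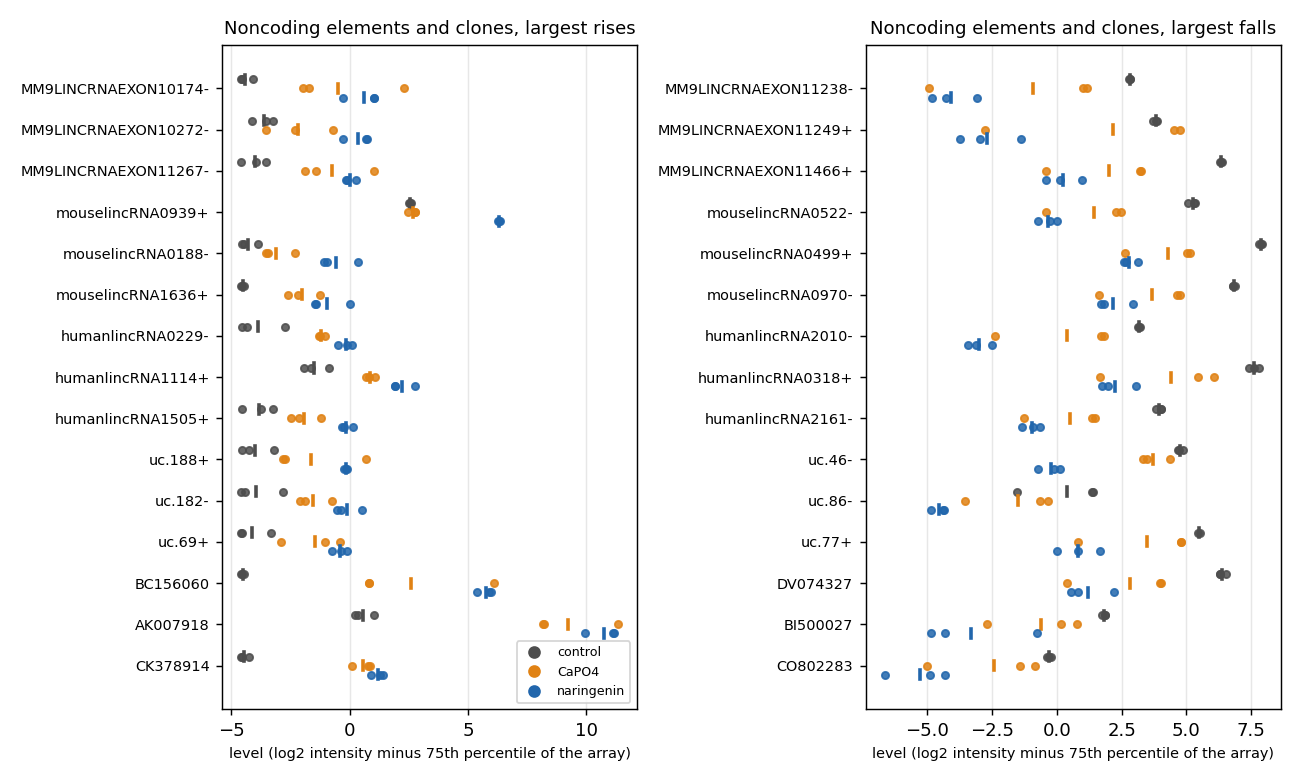
Level of each array (log2 intensity relative to the 75th percentile of each array, horizontal axis) for the 3 largest rises and 3 largest falls (by fitted change) of each noncoding class and of the cDNA clones; points are arrays and ticks are group means, n = 3 per group. For mouselincRNA0939+ the CaPO4 points lie on the controls at 2.46 to 2.77 and the naringenin points at 6.29 to 6.37, while for most falls CaPO4 2 lies with naringenin.

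Among the cDNA clones, which are sequenced transcripts with no gene symbol in the files, the largest fitted rises were those of BC156060 and AK007918. BC156060 lay at -4.58, -4.44 and -4.53 on the controls, none well above background, at 0.83, 6.09 and 0.83 on CaPO4, and at 5.98, 5.90 and 5.38 on naringenin, at least 246-fold higher (adjusted p = 4.51e-06). AK007918 had 1.04, 0.37 and 0.25, then 8.20, 11.34 and 8.18, then 11.17, 11.14 and 9.95, a rise of 10.20 ± 0.40. For AK007918 every aneurysm array was bright, so CaPO4 1 and 3 were far above control, unlike for Amy2a5. CK378914 was at least 10.5-fold higher, with 0.79, 0.09 and 0.86 on CaPO4 against 1.40, 1.27 and 0.92 on naringenin. DV074327 changed by -5.17 ± 0.43, from 6.28, 6.52 and 6.31 to 0.54, 0.84 and 2.21. CO802283 was at least 6.52-fold and BI500027 at least 12.5-fold lower, the latter with an adjusted p of 0.0502 with scan as a random block.

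Detection in 1 group and not in the other leaned to naringenin. Over all probes, 2823 were well above background on the 3 naringenin arrays and on no control, and 285 on the 3 controls and on no naringenin array. The numbers were 15 and 1 for RefSeq, 148 and 24 for MM9LINCRNAEXON, 20 and 4 for mouselincRNA, 38 and 7 for humanlincRNA, 33 and 2 for ultraconserved elements, and 52 and 10 for cDNA clones. Beside BC156060, the rule named MM9LINCRNAEXON11580-, at -2.55, -2.49 and -2.54 on the controls and 0.27, 0.42 and 2.96 on naringenin. It was at least 10.6-fold higher, and at least 5.79-fold without naringenin 3, the brightest array. In the other direction MM9LINCRNAEXON10277+ was at least 7.42-fold lower, after uc.86-. Naringenin 3 had more probes above background than any other array, and its part in the lean was not tested.

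The strands of a noncoding element were called in the same and in opposite directions. Of 3157 elements with a probe for each strand 620 had both tested. Both strands were called for 223, of which 55 were higher on both, 75 lower on both and 93 opposite. Just 1 strand was called for 294 elements and neither for 103. Over all probes 29.1% were called higher and 30.5% lower, so mixed pairs are common for any 2 probes and nothing particular to the elements is read from the counts. Of the 185 elements with both probes well above background on all 6 arrays, 11 were higher on both strands, 18 lower on both and 25 opposite. In MM9LINCRNAEXON11061 the + strand was at least 4.4-fold lower and the - strand at least 3.88-fold higher (adjusted p = 0.000139 and 0.000145), each with background levels in the dimmer group. The probe humanlincRNA2199+ went from 8.74, 8.86 and 9.0 on the controls to 4.68, 4.73 and 5.22 on naringenin, while humanlincRNA2199-, at background on the controls, was at least 1.29-fold higher. For uc.300 the + strand was at least 10.5-fold lower and the - strand at least 1.49-fold higher. In humanlincRNA0520, measured on all 6 arrays on both strands, both were lower, at -3.53 and -3.55. The 2 probes of an element lie at different bases, so differences in probe quality and in signal from other transcripts are part of such a comparison.

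**Figure D5:**
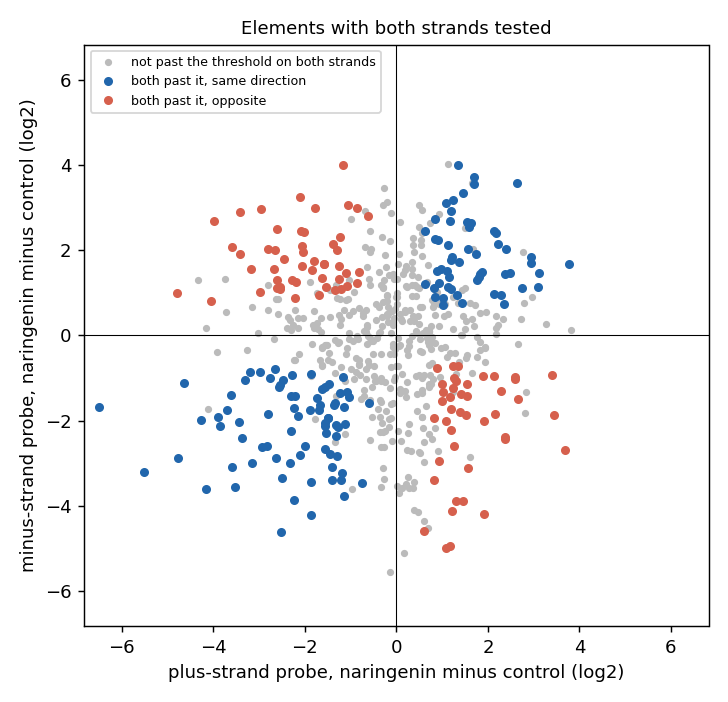
Change of the plus-strand probe (horizontal axis) against that of the minus-strand probe (vertical axis), both naringenin minus control in log2, for the 620 noncoding elements with both strands tested. Blue points are elements with both strands called in the same direction (55 higher and 75 lower), red points those called in opposite directions (93), and grey points the rest.

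How far naringenin 3 lay from control, beside naringenin 1 and 2, differed with the direction of the call. Among probes well above background on all 6 arrays, naringenin 3 was closer to the control mean than the mean of naringenin 1 and 2 for 4810 of 6348 probes called higher (75.8%) and for 2308 of 6090 called lower (37.9%). Amy2a5, the Ccl21 copies, Ssty2 and Gusb were of the first kind, with naringenin 3 lowest, while for Tbp naringenin 3 was the farthest from control. Without naringenin 3 the count of calls was 25581 of 35533 probes and 97 of 110 RefSeq probes. Of the 82 RefSeq calls 78 were also made without each array in turn, and 56, of which 49 were higher, held in each of 16 settings of scaling, background correction, outliers, fit and arrays.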

How the data were processed

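Aortic RNA for 9 arrays was freed of ribosomal RNA and copied by random priming into cRNA carrying Cy3, per the labels' protocols. The deposited intensity values, in the table of all arrays and in the scanner files, came from the authors' scans read in Agilent Feature Extraction 11.0.1.1, per the submitters' processing notes, and were background-subtracted, on a design that the file headers annotate to mm9, with no scaling between arrays (the largest difference between table and scanner values was 0.0999%).

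Each array held 62513 spots, of which 0 were saturated. Spots of controls and outlier spots were left out, spots of a probe were averaged as log2, and the 75th percentile of the array was subtracted. Of 35724 probes that were well above background (at least 50% of spots) on at least 3 of the 6 arrays, 191 had no value in 1 group and 35533 were fitted with limma 3.58.1 in R 4.3.3, with a mean per group and a two-sided moderated test. The fit was tested on simulated data with independent arrays and no scan effect, which does not bear on group and scan being confounded. CaPO4 minus control came from a fit of all 9 arrays. Of 123 RefSeq accessions 116 matched a name table of GRCm38.p6, giving 112 symbols, and promoters are RefSeq's of that build. No sequence was printed for lincRNA, ultraconserved or clone probes. The number of arrays limits the precision.

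The named transcripts were, per class, the largest called changes with groups that did not overlap (10 per direction for RefSeq genes with a symbol, 3 for the other classes), up to 4 members of each family, the 7 genes Amy2a5, Gusb, Jrkl, Tbp, Gapdh, B2m and Hmgcs1, the 5 narrowest intervals near control, and 2 bounds per direction. Ssty1, Sly, NM_011667, Hprt, Tuba1b, Rpl13a, Nono, Vmn1r62, Vmn1r187, Vmn1r241 and the strand pairs were added after their values were seen. Members and lists were chosen with earlier results of these data known. Alternatives were other scalings, normexp background correction (offset 50, on median in place of mean spot signal), scanner values, filters, outliers kept, all 9 arrays, scan as a random block, a replicate block and leaving out each array.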

Additional observations from a re-analysis of the deposited data

How the results depend on the processing

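Of the 61 named transcripts that were called, 60 kept the call without each array in turn (the exception was Gapdh) and 48 with scan as a random block. With normexp 60 kept the call and direction, H2al2b being the exception, but 35 of the 61 changes were over 1.5 times smaller, such as those of dim probes. The count over all probes lay between 17657 and 25581 without each array, 78 and 97 for RefSeq, 1216 and 1682 for lincRNA elements, 156 and 207 for ultraconserved elements and 333 and 450 for cDNA clones. With scan as a random block limma called 6868 probes, 439 lincRNA elements, 50 ultraconserved elements and 143 cDNA clones. Without scaling it called 839 lincRNA elements and 112 ultraconserved elements, and with the filter on all 6 arrays, which tests fewer probes, 12976 probes, 747 lincRNA elements, 82 ultraconserved elements and 233 cDNA clones. The median change of all probes shifted from -0.04 to -0.15 with the percentile over detected probes and to -0.12 with quantile normalization. Changes near 0 turned sign: NM_009268 to -0.02 with the percentile over detected probes, -0.41 with quantile normalization and -0.06 with normexp, Gm20823 to 0.13 without naringenin 3 (-0.21 to 0.13 over the arrays left out), and Fam177a2 to 0.02 with the array median, 0.06 without scaling, 0.08 with normexp, 0.02 with outliers kept, 0.01 without control 1 and 0.21 without naringenin 3 (-0.17 to 0.21 over the arrays left out); the cause was not tested for these or for the counts above other than the filter. Same-numbered arrays did not deviate together (r of 0.0416, -0.0258 and 0.0111), so the numbers are not taken as pairs, and with a replicate block 20511 probes, 82 RefSeq probes, 1397 lincRNA elements, 181 ultraconserved elements and 376 cDNA clones were called. Probes not well above background give bounds only.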
